A study of Mus musculus with 346 samples.

Results

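The genes described here are 7 members of the Ras and MAP kinase pathway, namely Nras, Hras, Nf1, Rasa1, Sos1, Braf and Map2k1. They were chosen by name and were all found, through their Entrez gene numbers, among the 27179 genes counted in each cell. The counts came from 346 single mammary cells of FVB/NJ mice, which are an inbred strain, and each cell was captured and its cDNA made in a separate chamber of a Fluidigm C1 chip. The groups were 144 cells from 2-week-old mice before puberty, 136 cells from mice at puberty, aged 4.7 to 4.9 weeks, and 66 cells from adult mice aged 10 weeks. All were labelled as total epithelium of untreated mice of the same strain, and the study sorted them as cells lacking the blood, immune and endothelial surface markers Ter119, CD45 and CD31.

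No label names the mouse, the chip or the day of a cell, so each stage counts as 1 sample, and no test between stages was possible. The values below describe these cells, and their intervals cover counting error only. After the study's coverage filter of 100000 reads and 1500 genes per cell, 116 pre-pubertal, 119 pubertal and 44 adult cells were kept. A kept cell had between 109394 and 1189268 reads on the genes analysed, with a median of 296638 before puberty, 574442 at puberty and 334354 in the adult. All 346 cells had distinct counts.

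The pre-pubertal cells went against their label by pan-epithelial and luminal genes, but less so by basal genes. Epcam, an adhesion molecule of epithelial cells, had a read in 12.9% of pre-pubertal cells, 96.6% of pubertal cells and 93.2% of adult cells at equal depth. In contrast, 24 listed genes of Schwann cells, the glia of peripheral nerves, summed to 26941 counts per 1000000 reads (CPM) before puberty, 1614 CPM at puberty and 930 CPM in adult cells. Per cell that sum ran from 621 to 93817 CPM, from 0 to 135853 CPM and from 0 to 4915 CPM. All 24 had reads before puberty, whereas 2 had none at puberty (Ngfr and Sox2) and 8 had none in the adult (among them Gfra3, Fabp7, Kcna1, Gap43, Dhh, Cadm4 and Nrn1). Scn7a and Pmp22 were the most abundant genes of that list. Scn7a was at 6222, 94.3 and 596 CPM in the same order of stages, and Pmp22 was at 5022, 883 and 106 CPM. Scn7a was read in 75.0% of adult cells, and the study lists Scn7a and Ngfr among its genes of adult basal cells. The summed level of 10 fibroblast genes was 7695, 2355 and 1777 CPM in the same order. That of 14 pan-epithelial genes was 574, 8051 and 7607 CPM, and that of 10 luminal genes was 222, 9487 and 11357 CPM. The 15 listed basal genes summed to 2288, 4023 and 10033 CPM. Per cell their median sum was 142, 85.3 and 347 CPM, with a median of 2, 2 and 6.5 of them read. The study describes the pre-pubertal cells as basal-like. The 6 immune and 6 endothelial genes summed to 164 CPM or less at any stage. The log2 ratios, counts past 2-fold and shares of the members, and the levels of the pathway genes named, were therefore also computed on the cells with a read of Epcam, Krt8 or Krt14, which were 37 pre-pubertal, 116 pubertal and 44 adult cells. This choice does not remove cells with Schwann reads.

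Ras proteins are small GTPases at the inner face of the cell membrane that switch between an inactive state bound to GDP and an active state bound to GTP. Exchange factors such as Sos1, which are recruited to activated growth factor receptors, load Ras with GTP. GTPase activating proteins such as Nf1 (neurofibromin) and Rasa1 (p120 RasGAP) speed up GTP hydrolysis and return Ras to its inactive state. Active Ras recruits the Raf kinases, Braf among them, which phosphorylate the kinases Map2k1 and Map2k2 (MEK1 and MEK2), and these in turn phosphorylate the ERK kinases, Mapk3 among them. In the mammary gland, signals of receptor tyrosine kinases that act through this pathway take part in the growth of the ducts at puberty.

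The DNA directly upstream of both Ras GTPases among the members is shown because the levels of these paralogues differed between pre-puberty and puberty in opposite directions. Nras lies on the forward strand at chr3:103058285-103067914 of build GRCm38.p6, and the 98 bases before its start are shown. Hras lies on the reverse strand at chr7:141189934-141194019 and starts 91 bases from Lrrc56, which is transcribed the other way, and the bases between them are shown. Neither stretch overlaps an annotated exon. Both are printed 5′ to 3′ on the strand of the Ras gene, from RefSeq, with GC boxes (GGGCGG) and CCAAT boxes (CCAAT) in capitals.
Nras, chr3:103058187-103058284: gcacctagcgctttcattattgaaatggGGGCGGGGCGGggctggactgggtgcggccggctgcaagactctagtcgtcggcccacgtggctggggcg
Hras, chr7:141194020-141194110: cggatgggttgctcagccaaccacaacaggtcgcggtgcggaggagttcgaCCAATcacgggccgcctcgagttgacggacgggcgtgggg
Both strands were searched. The stretch upstream of Nras held 2 GC boxes that overlap by a base and no CCAAT box, and 25.0% of 27025 RefSeq promoter windows of the same length held a GC box. The stretch upstream of Hras held 1 CCAAT box, as did 18.2% of windows of its length, and no GC box. Neither held the TATA box letters TATAAA or the AP-1 letters TGANTCA. A match of letters describes the window and does not show that a factor binds there.

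Nras, one of the classical Ras GTPases, was the most abundant of the 7 members before and during puberty and far lower in the adult. In single cells before puberty its level ran from 0 to 7119 CPM with a median of 2123 CPM. At puberty it ran from 0 to 7537 CPM with a median of 1145 CPM, and in the adult from 0 to 2245 CPM with a median of 58.4 CPM. The ranges overlapped at their lower ends, but the highest adult cell was close to the pre-pubertal median. Summed over the cells of a stage, Nras was at 2459 CPM (95% Poisson interval 2443 to 2474) before puberty, 1608 CPM (1598 to 1617) at puberty and 217 CPM (210 to 223) in the adult. With 5 CPM added to each level, the log2 ratio was 0.61 (pre-puberty/puberty), 2.86 (puberty/adult) and 3.47 (pre-puberty/adult). Expressed genes (10 CPM or more) were also ranked by CPM per length of the gene model. Nras stood at the 99.1 percentile before puberty, the 97.6 percentile at puberty and the 74.8 percentile in the adult.

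The share of cells with an Nras read was less uneven than the level. With each cell thinned to 100000 reads, at least 1 Nras read was held by 99.1% of cells before puberty (Clopper-Pearson 95% interval 95.3 to 100.0), by 94.1% at puberty (88.3 to 97.6) and by 81.8% in the adult (67.3 to 91.8). Without thinning the shares were 99.1%, 98.3% and 90.9%. With a minimum of 5 reads per thinned cell they were 96.6%, 84.9% and 52.3%. Thus most adult cells held Nras reads, but few per cell. At 100000 reads a median of 2858, 2713 and 2169.5 genes were read per cell, so adult cells read fewer genes of any kind. No share over all genes was set beside the shares of the members.

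Nras belongs to a set of genes that the study grouped by their stage pattern on overlapping cells, so its order over the stages is not independent evidence of that pattern. The adult level rested partly on 1 cell, which gave 27.2% of the adult Nras reads. Without the cell with the most reads at each stage, Nras was at 2390, 1566 and 165 CPM. Leaving out top cells moved the median log2 ratio of all genes (puberty/adult) from 0.10 to 0.72. Lower adult levels without top cells, here and below, are to be read beside that shift. RefSeq lists a pseudogene, Nras-ps2, and how reads that match more than 1 place were counted is not given in the sources used here. Gapdh, which has many pseudogenes, was at 0.27, 0.89 and 2.19 CPM in these counts, so levels of genes with near-identical copies are uncertain. Actb, the other reference gene looked at, was not near 0, with 18069, 18174 and 7661 CPM. It was also lower in the adult, with a log2 ratio of 1.25 (puberty/adult), and the study lists it in the same gene set as Nras and Nf1.

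**Figure D1:**
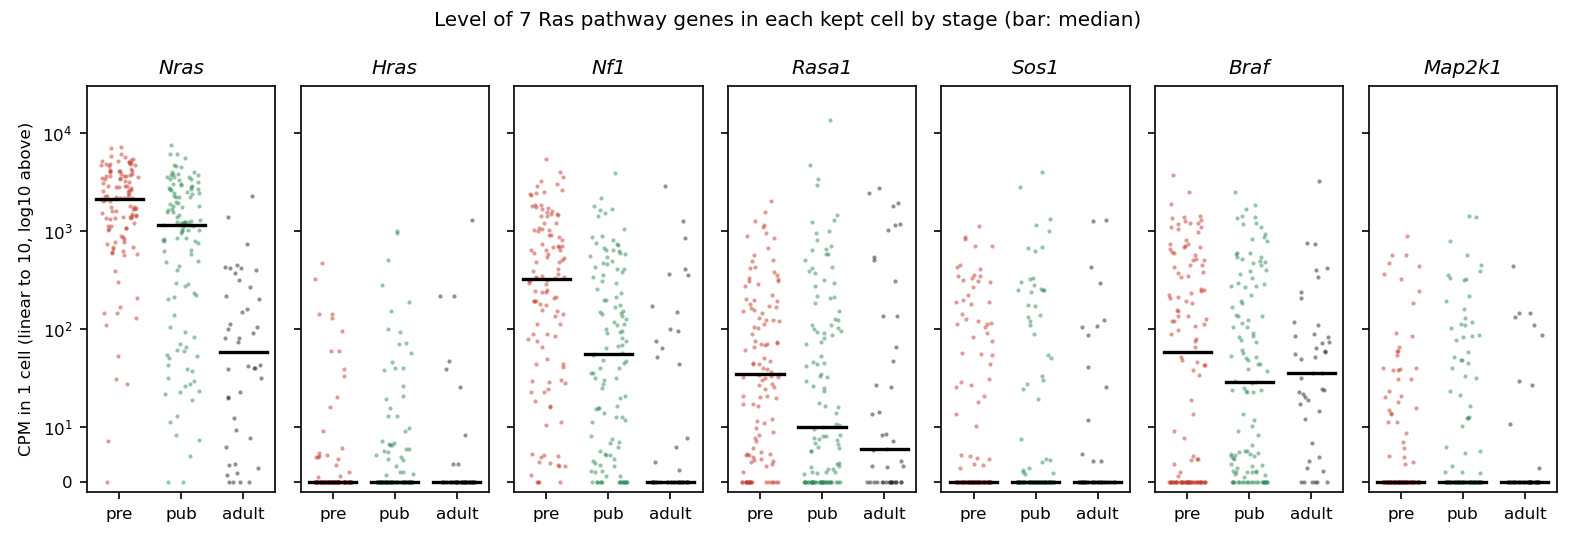
Level of each of the 7 members in every kept cell, in CPM on an axis that is linear up to 10 and log10 above, for pre-pubertal (red), pubertal (green) and adult (black) cells, with a bar at the median. Most adult points for Nras lie below the pubertal median of 1145 CPM, whereas the points for Hras, Sos1 and Map2k1 lie mostly at 0 at every stage.

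Hras, the paralogue of Nras that was chosen as a member, was lower before puberty than at puberty, opposite to Nras at that step. Its level in single cells ran from 0 to 467 CPM before puberty, from 0 to 1002 CPM at puberty and from 0 to 1300 CPM in the adult, and the median was 0 at each stage. Its summed level was 13.5 CPM (12.4 to 14.6) before puberty, 41.8 CPM (40.3 to 43.4) at puberty and 39.3 CPM (36.5 to 42.2) in the adult. Of the thinned cells, 13.8% (8.09 to 21.4), 26.9% (19.2 to 35.8) and 15.9% (6.64 to 30.1) held a read. The log2 ratios were -1.34 (pre-puberty/puberty), 0.08 (puberty/adult) and -1.26 (pre-puberty/adult).

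The adult Hras level came mainly from a single cell with 65.3% of the reads, and with the top cell of every stage left out the levels were 10.2, 27.0 and 13.9 CPM. At puberty the level was higher in cells with Krt14 reads, Krt14 being a keratin of basal cells. Hras was at 90.6 CPM in 48 such pubertal cells and at 8.74 CPM in 67 pubertal cells with Krt8, a keratin of luminal cells, and no Krt14 read. Without the top cell of each group these were 55.0 and 5.93 CPM. In the adult the gap ran the other way, with 18.5 CPM in the Krt14 group and 77.6 CPM in the Krt8 group, or 10.2 and 5.00 CPM without their top cells. The pubertal shares of cells overlapped, with 29.2% (17.0 to 44.1) and 25.4% (15.5 to 37.5). Per length of the gene model the Ras GTPases differed widely, with Nras at 550 reads per 1000 bases per 1000000 reads (RPKM) and Hras at 5.93 RPKM before puberty, 360 and 18.4 RPKM at puberty, and 48.4 and 17.3 RPKM in the adult. Lrrc56, next to Hras, was at 1.30, 13.8 and 0.05 CPM.

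Sos1, the exchange factor (chr17:80393752-80480453), had summed levels close to each other at the 3 stages, but they moved with the choice of cells. Its level in single cells ran from 0 to 1133 CPM before puberty, from 0 to 3939 CPM at puberty and from 0 to 1291 CPM in the adult, with a median of 0 at each stage. The summed level was 104 CPM (101 to 107), 127 CPM (125 to 130) and 109 CPM (104 to 114). The shares of thinned cells with a Sos1 read were 38.8% (29.9 to 48.3), 28.6% (20.7 to 37.6) and 27.3% (15.0 to 42.8), and these intervals overlapped. The log2 ratios lay between -0.27 and 0.22. A single cell gave 46.5% of the adult reads, and with the top cells left out the levels were 85.3, 104 and 60.7 CPM. The log2 ratio (pre-puberty/puberty) was -0.85 in cells with epithelial reads and -0.59 without pre-pubertal cells 1 to 37, and in cells with 200000 to 600000 reads it was -1.02, with 1.398 for puberty/adult.

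Nf1, which turns Ras off and lies at chr11:79339590-79581609, was highest before puberty and lower at each later stage. In single cells it ran from 0 to 5405 CPM with a median of 324 CPM before puberty. It ran from 0 to 3900 CPM with a median of 55.3 CPM at puberty, and from 0 to 2848 CPM with a median of 0 in the adult. The ranges overlapped, whereas the medians were well apart. The summed level was 691 CPM (683 to 699) before puberty, 288 CPM (284 to 292) at puberty and 171 CPM (165 to 177) in the adult, and the log2 ratios were 1.25 (pre-puberty/puberty), 0.74 (puberty/adult) and 1.98 (pre-puberty/adult).

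The share of thinned cells with an Nf1 read followed the same order, with 87.9% (80.6 to 93.2) before puberty, 75.6% (66.9 to 83.0) at puberty and 38.6% (24.4 to 54.5) in the adult. Without thinning, the shares were 96.6%, 86.6% and 40.9%. Thinned adult cells also read fewer genes in total, with a median of 2169.5 beside 2713 at puberty. The adult level rested on few cells, since 1 cell gave 41.4% of the adult reads, and with the top cells left out the levels were 660, 259 and 103 CPM. Among cells with 200000 to 600000 reads the log2 ratio (puberty/adult) was -0.0071, beside a median of 0.30 over all genes, so the difference in level was not seen there. Nf1, like Nras, is in a gene set that the study formed by stage pattern, so its order is not independent evidence either. The genes Omg, Evi2a and Evi2b lie inside Nf1 on the opposite strand without sharing exon bases with it, and they were at 27.4 CPM or less at every stage.

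Rasa1, the other GTPase activating protein among the members (chr13:85214699-85289486), did not share the order of Nf1 in its level. It ran from 0 to 2030 CPM with a median of 34.4 CPM before puberty, from 0 to 13450 CPM with a median of 10.1 CPM at puberty, and from 0 to 2750 CPM with a median of 5.90 CPM in the adult. Its summed level was 164 CPM (160 to 168), 255 CPM (252 to 259) and 252 CPM (245 to 260), with log2 ratios of -0.62, 0.02 and -0.61 in the same order as for Nf1. The share of thinned cells with a read went the other way, with 73.3% (64.3 to 81.1), 56.3% (46.9 to 65.4) and 47.7% (32.5 to 63.3). Pre-pubertal cells therefore more often held a Rasa1 read but had the lowest sum, and no order over the stages was read from either. A 12-base stretch of annotated exon is shared with the neighbour Ccnh, which was at 72.3, 128 and 89.9 CPM.

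**Figure D2:**
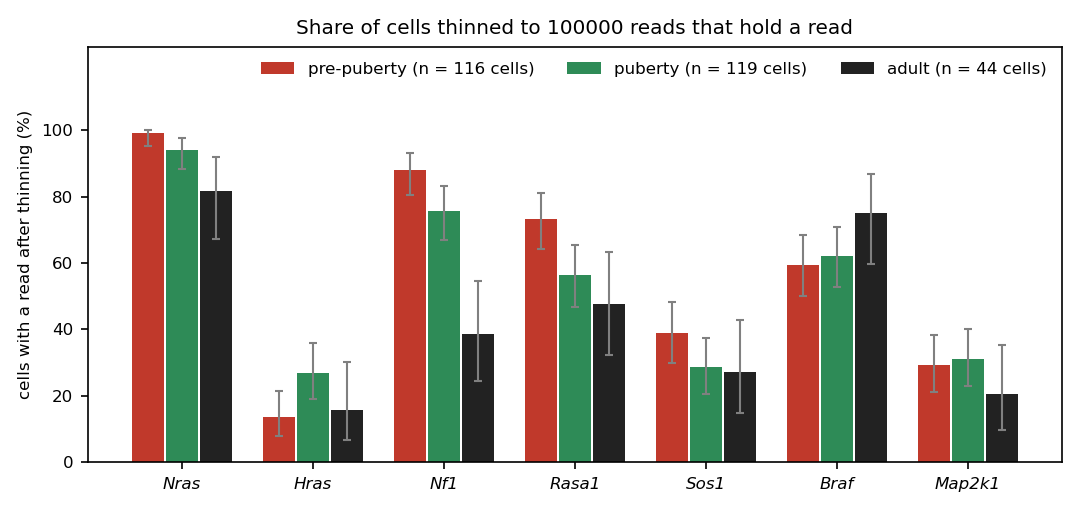
Share of kept cells, thinned to 100000 reads each, that held at least 1 read of each member, in percent, for 116 pre-pubertal (red), 119 pubertal (green) and 44 adult (black) cells with Clopper-Pearson 95% intervals. Nf1 has the widest spread between stages, from 87.9% before puberty to 38.6% in the adult, while Braf has its highest share, 75.0%, in the adult.

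Braf, the Raf kinase among the members (chr6:39603231-39725658), was lower at each later stage by its level but not by its share. Its level in single cells ran from 0 to 3738 CPM with a median of 58.6 CPM before puberty, from 0 to 2462 CPM with a median of 28.9 CPM at puberty, and from 0 to 3253 CPM with a median of 35.8 CPM in the adult. The summed level was 328 CPM (323 to 334), 246 CPM (242 to 250) and 146.4 CPM (140.96 to 151.99), with log2 ratios of 0.41, 0.73 and 1.14 in the order used above. Braf reads were found in 59.5% (50.0 to 68.5) of thinned cells before puberty, 62.2% (52.8 to 70.9) at puberty and 75.0% (59.7 to 86.8) in the adult. As the share and the level ran in opposite directions, no order over the stages is read for Braf. An annotated exon of Ndufb2, a subunit of respiratory complex I at 62.9, 108 and 152.1 CPM, overlaps an exon of Braf, and whether the counting used strand is not given in the sources used here.

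Map2k1, which encodes MEK1 (chr9:64185769-64253605), was highest at puberty. Its level in single cells ran from 0 to 881 CPM before puberty, from 0 to 1420 CPM at puberty and from 0 to 433 CPM in the adult, with a median of 0 at each stage. The summed level was 43.5 CPM (41.5 to 45.6), 79.8 CPM (77.7 to 81.9) and 25.2 CPM (23.0 to 27.6), and the log2 ratios were -0.81 (pre-puberty/puberty) and 1.49 (puberty/adult). The shares of thinned cells were 29.3% (21.2 to 38.5), 31.1% (22.9 to 40.2) and 20.5% (9.8 to 35.3), with intervals that overlapped.

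Per length, the order of the members changed with stage. Before puberty Nras led at 550 RPKM, followed by Nf1 at 58.3, Braf at 33.7, Rasa1 at 32.2, Map2k1 at 18.2, Sos1 at 11.7 and Hras at 5.93 RPKM. In the adult Rasa1 at 49.4 and Nras at 48.4 RPKM led, followed by Hras at 17.3, Braf at 15.0, Nf1 at 14.4, Sos1 at 12.2 and Map2k1 at 10.6 RPKM. No spread over mice can be given. In the adult a single cell held from 19.9% to 65.3% of the reads of a member, so the adult order is not firm. That includes the places of Rasa1 and Nras.

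Compared over all expressed genes, differences of this size were common. For pre-puberty over puberty, 1 of the 7 members (Nf1) was at least 2-fold higher, against 21.4% of 9874 genes, and 1 (Hras) was at least 2-fold lower, against 24.0%. For puberty over adult, 2 members (Nras and Map2k1) were at least 2-fold higher, against 28.3% of 9471 genes, and 0 were lower, against 20.6%. For pre-puberty over adult, 3 members (Nras, Nf1 and Braf) were at least 2-fold higher, against 31.6% of 9760 genes, and 1 (Hras) was lower, against 28.9%. The comparisons share their stages, and counts over 7 genes are too small to set the members apart from these shares. The median log2 ratio of the members was -0.27, 0.73 and 0.68 for these comparisons, beside -0.13, 0.10 and 0.02 over all expressed genes. By level alone, 3 members (Nras, Nf1 and Braf) were lower at each later stage, as were 23.3% of 10545 genes. For Braf the share of cells ran the other way, and in cells with 200000 to 600000 reads its log2 ratio (puberty/adult) was -0.14.

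The wider list of 72 pathway genes in 10 roles did not share the order of Nras and Nf1 as a whole. Between pre-puberty and puberty, 11 of 54 expressed pathway genes were at least 2-fold higher and 9 were lower, with a median log2 ratio of 0.19, the earlier stage being the numerator. Between puberty and the adult, 11 of 51 were higher and 10 lower, with a median of 0.08. Between pre-puberty and the adult, 14 of 49 were higher and 10 lower, with a median of 0.24. In percent these were 20.4% and 16.7%, 21.6% and 19.6%, and 28.6% and 20.4%, each somewhat below the share over all expressed genes given above.

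By paralogue, the median log2 ratio of the listed Ras GTPases was -0.24 (pre-puberty/puberty) and 0.19 (puberty/adult). None of the 6 was at least 2-fold higher before puberty than at puberty. Rras, a GTPase linked to integrin adhesion, was at 44.4, 36.5 and 81.0 CPM, but 1 cell gave 69.0% of its pre-pubertal reads. With the top cells left out Rras was at 14.1, 29.3 and 53.3 CPM, which turns the earlier step around. Rras2 was at 15.3, 46.2 and 40.9 CPM, or 10.52, 40.4 and 13.8 CPM without the top cells, so like Hras it was highest at puberty and its adult level rested on 1 cell. Mras was at 6.58, 14.2 and 3.32 CPM, or 2.49, 10.3 and 1.79 CPM without the top cells. The paralogues of Nf1 were divided. Rasal2 had the order of Nf1, with 115, 39.0 and 18.0 CPM and log2 ratios of 1.45 and 0.94, although its share of thinned cells was 44.8%, 14.3% and 20.5% and its adult level was 5.23 CPM without the top cell. Rasa2 was at 56.3, 56.6 and 57.8 CPM, or 46.3, 38.1 and 33.4 CPM without the top cells. Rasa3 was at 37.1, 21.2 and 31.8 CPM, or 30.3, 8.96 and 6.94 CPM without them. These paralogues are named because they are the relatives of Nras and Nf1, with their values known.

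Among the partners, Mapk3 (ERK1) was at 135 CPM before puberty, 42.0 CPM at puberty and 21.0 CPM in the adult, with shares of 45.7%, 30.3% and 18.2%, so that it had the order of Nras and Nf1, also without the top cells (113, 35.3 and 12.9 CPM). Araf, a Raf kinase, was at 55.9, 34.1 and 101 CPM, the adult level being 59.5 CPM without its top cell. Map2k2 (MEK2), like Map2k1, was highest at puberty, with 22.7, 33.9 and 19.2 CPM.

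The feedback inhibitors of the pathway spanned the widest range of log2 ratios between pre-puberty and puberty, from -3.82 to 2.59. Spry2, a Sprouty protein that restrains signalling from receptor tyrosine kinases, was at 2070 CPM before puberty, 341 CPM at puberty and 137 CPM in the adult. A Spry2 read was found in 99.1%, 87.4% and 81.8% of thinned cells, and the log2 ratios were 2.59 (pre-puberty/puberty) and 1.28 (puberty/adult). Dusp7, a phosphatase that acts on ERK, had the opposite order at the earlier step, with 11.4, 226 and 251 CPM and log2 ratios of -3.82 (pre-puberty/puberty) and -0.15 (puberty/adult). A Dusp7 read was found in 25.9%, 64.7% and 56.8% of thinned cells, and the adult level was 145.3 CPM without its top cell, below the pubertal 192 CPM computed likewise. The median log2 ratio of all genes (puberty/adult) moved the same way without top cells, from 0.10 to 0.72. Over the 9 expressed feedback inhibitors, 3 were at least 2-fold higher before puberty than at puberty and 2 were lower.

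**Figure D3:**
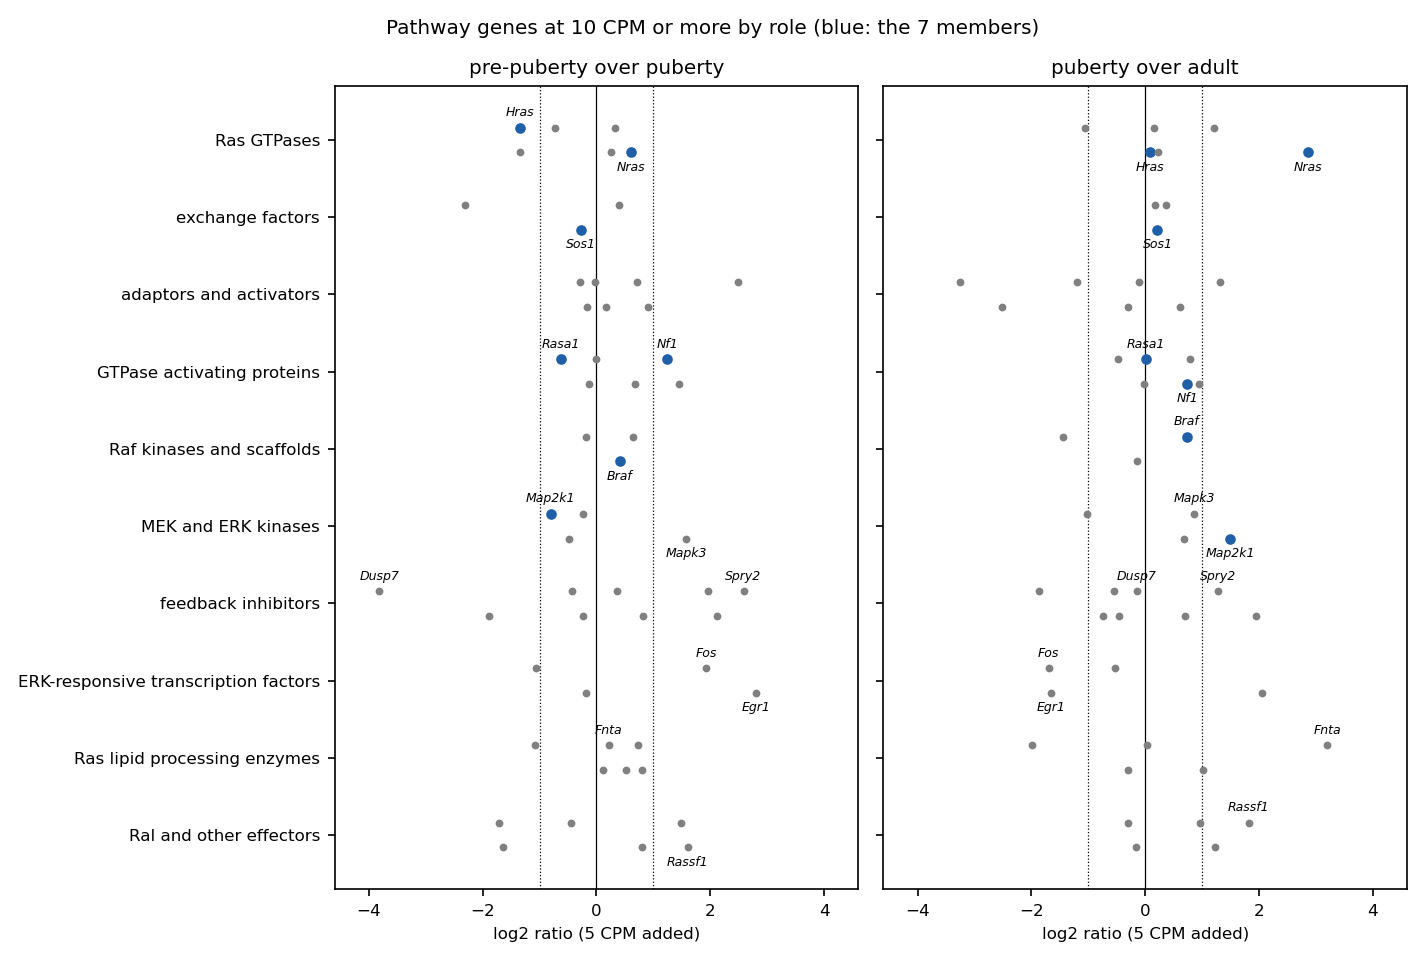
Log2 ratio of stage-summed CPM (5 CPM added) for pre-puberty over puberty (left) and puberty over adult (right) of every pathway gene at 10 CPM or more in either stage, in rows by role, with the 7 members in blue, the other genes in grey and dotted lines at 2-fold. Spry2 at 2.59 and Dusp7 at -3.82 stand far apart within the feedback inhibitors on the left, and Nras at 2.86 stands apart from Hras at 0.08 on the right.

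Fos and Egr1, transcription factors induced within minutes of ERK activation, were lowest at puberty. Fos was at 4737, 1236 and 4021 CPM and was read in 100.0%, 84.0% and 100.0% of thinned cells. Egr1 was at 4642, 662 and 2103 CPM and was read in 100.0%, 79.8% and 93.2%. The other genes that met the rule for naming were Rassf1, a Ras association domain protein, at 207, 64.7 and 14.8 CPM, and Fnta, the alpha subunit of the enzymes that attach lipids to Ras, at 170, 145.6 and 11.5 CPM. Their shares of thinned cells were 50.0%, 30.3% and 15.9% for Rassf1 and 54.3%, 26.9% and 15.9% for Fnta. Spry2, Dusp7, Fos and Egr1 are, like Nras and Nf1, in gene sets that the study drew from overlapping cells.

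By level, 12 of the 54 expressed pathway genes were lower at each later stage and at least 2-fold higher before puberty than in the adult, which is 22.2%, beside 19.4% of all expressed genes. They were Nras, Nf1, Braf, Mapk3, Spry2, Spred2, Rasal2, Frs2, Fnta, Pde6d, Rassf1 and Rassf5. Braf is in this count by its level only, since its share of cells was highest in the adult. Rassf5 is in it through 1 cell with 92.3% of its pre-pubertal reads, and was at 1.56, 1.44 and 0.72 CPM without the top cells. With the top cells left out the count was 15 of 53, or 28.3%, beside 25.5% of all expressed genes. Among cells with epithelial reads it was 11 of 55, or 20.0%, beside 18.8%, and Braf was not among them. Activators, inhibitors and kinases were among the 12.

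The Schwann and epithelial marker levels given above moved with each comparison that includes the pre-pubertal cells, and their part in those results was not tested. Choosing cells with a read of Epcam, Krt8 or Krt14 does not remove Schwann reads. The lowest kept pre-pubertal cell held 621 CPM of the 24 Schwann genes, so the ratios that follow are not those of cells known to be epithelial. Among the cells so chosen, the log2 ratio between pre-puberty and puberty was 0.60 for Nras and 1.42 for Nf1, as large as in all cells for Nras and larger for Nf1. For Hras it was -0.79, which is under 2-fold, and for Braf pre-puberty over adult it was 0.98, also under 2-fold. Of the pathway genes, Spry2 was at 1831 CPM, Mapk3 at 122 CPM, Fos at 5089 CPM, Egr1 at 4769 CPM and Dusp7 at 11.0 CPM in such pre-pubertal cells, and their log2 ratios (pre-puberty/puberty) were 2.45, 1.39, 2.00, 2.86 and -3.66. Rassf1 was at 126 CPM with a ratio of 0.87, which is under 2-fold. Rras was at 3.35 CPM with a ratio of -2.35. Nras was at 2450 CPM in 30 pre-pubertal cells with Krt14 reads and at 2445 CPM in 84 pre-pubertal cells with neither keratin. Nf1 was at 821 and 653 CPM in the same cells.

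From puberty to the adult, cells could be compared within keratin groups. In cells with Krt14 reads, Nras was at 1342 CPM in 48 pubertal cells and 186 CPM in 30 adult cells. In cells with Krt8 but no Krt14 reads it was at 1834 CPM in 67 pubertal cells and 273 CPM in 14 adult cells. Without the top cells these were 1257 and 102 CPM, and 1763 and 203 CPM, so the lower adult level of Nras was present in both groups.

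The share of cells with an Nf1 read was lower in the adult in both keratin groups, with the wider gap in the Krt14 group. In the Krt14 group Nf1 was read in 68.8% (53.7 to 81.3) of cells at puberty and 26.7% (12.3 to 45.9) in the adult, with intervals that did not overlap. In the Krt8 group the shares were 80.6% (69.1 to 89.2) and 64.3% (35.1 to 87.2). Those intervals overlapped, but only 14 cells of that group were adult. Whether the groups differed was not tested. Adult cells as a whole read fewer genes at equal depth, as given above. By level, Nf1 was at 218 and 185 CPM in the Krt14 group and at 345 and 144.7 CPM in the Krt8 group. Without the top cell of each group these were 141 and 78.9 CPM, and 320 and 86.6 CPM. By level, unlike by share, the wider gap was thus in the Krt8 group. Rasa1 differed less, with 58.3% and 50.0% of Krt14 cells and 53.7% and 42.9% of Krt8 cells. Spry2 was at 479 and 174 CPM in the Krt14 group and at 228 and 68.8 CPM in the Krt8 group, where the adult level was 40.0 CPM without its top cell.

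**Figure D4:**
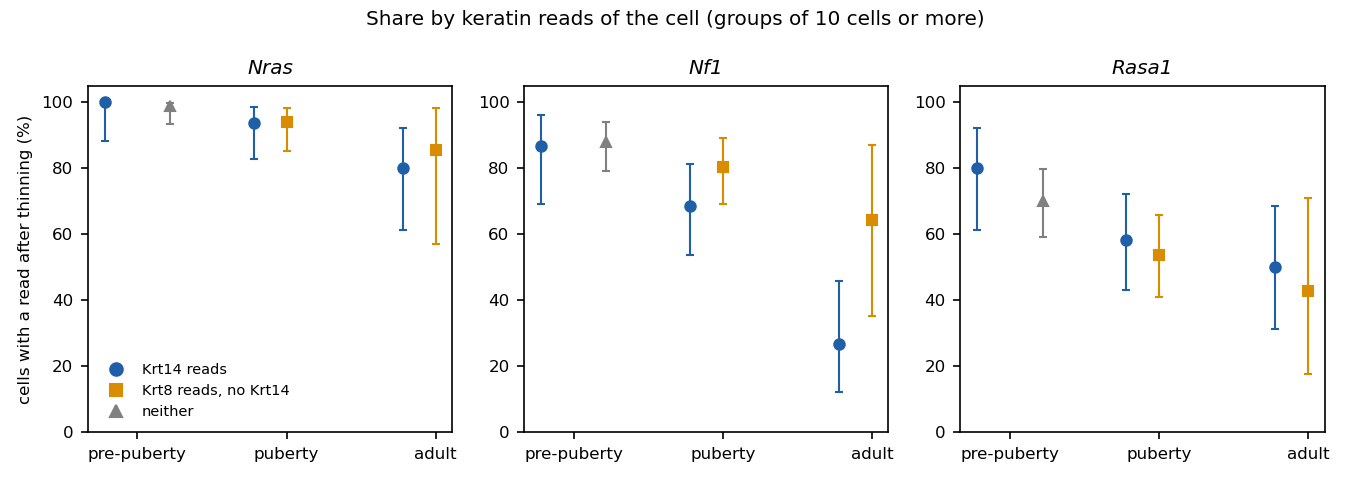
Share of thinned cells with a read of Nras, Nf1 or Rasa1, in percent with Clopper-Pearson 95% intervals, by stage and by keratin reads of the cell (Krt14 reads in blue, Krt8 reads without Krt14 in orange, neither in grey), for groups of 10 or more cells. The share for Nf1 goes from 68.8% at puberty to 26.7% in the adult in Krt14 cells, and from 80.6% to 64.3% in Krt8 cells, of which only 14 were adult.

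Correlations between members within a stage were weak. Over the 21 pairs of members, Pearson's r of log2(CPM + 10) in thinned cells had a median of 0.07 in 116 pre-pubertal cells, 0.03 in 119 pubertal cells and -0.05 in 44 adult cells, and the highest r of any pair was 0.29. Nras and Nf1 had an r of 0.25, 0.20 and 0.15. The genes most like Nras, among 2388 genes read in at least 25% of cells of every stage, were Ywhaz, Septin2, Klhl9, Canx and Marchf6, with a mean r over the 3 stages of 0.31 to 0.25. Those most like Nf1 were Atp1b3, Tgfbr2, Atm, Sbno2 and Zfc3h1, with a mean r of 0.28 to 0.26, beside a median of 0.03 over all candidates for each gene. These values are weak, come from sparse counts of cells that share capture and depth, and are given as a description.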

How the data were processed

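The authors mapped read pairs of each C1 cell to the mouse genome mm10 with Subread (1.4.6 in the submitters' processing notes) and deposited raw counts per Entrez gene from featureCounts, with the gene length that was used here for RPKM. Of 27179 genes, 25275 matched a current symbol (1904 did not), and 15 mitochondrial and 89 ribosomal protein genes were also left out, as in the study. Counts of kept cells were summed per stage and given as CPM with exact Poisson 95% intervals. Log2 ratios used 5 CPM added, and a gene counted as expressed at 10 CPM in either stage. Cells were thinned without replacement to 100000 reads for shares, with Clopper-Pearson 95% intervals. With 1 sample per stage no test was run, and reads without molecular identifiers are not independent molecules. Scripts were tested on simulated data. Doublets were not called, since the authors viewed captured cells under a microscope.

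All members are named. Pathway genes were named where at least 2-fold apart, at 50 CPM and in 50% of cells of the higher stage, with likeness and neighbour rules besides. The members and lists were chosen with earlier results of these data known. Sequences came from RefSeq (GRCm38.p6) and exon overlaps from GENCODE on the same build. Alternatives covered the prior, filters, weights, scaling (edgeR 4.0.16, DESeq2 1.42.0), depth and dominant cells. Analysis used Python 3.11.15, numpy 2.4.6, scipy 1.17.1 and pandas 2.3.3.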

Additional observations from a re-analysis of the deposited data

Results flagged for a closer look

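Cells that missed the coverage filter were left out of the comparisons but held reads of Nras and Nf1 above the level that a count of 3 gives. Nras was at 1820 CPM in 28 such pre-pubertal cells, 308 CPM in 17 pubertal cells and 449 CPM in 22 adult cells. The pubertal value lay below the adult one there, whereas in kept cells Nras was at 1608 CPM at puberty and 217 CPM in the adult. Nf1 was at 862 CPM, 237 CPM and 34.4 CPM in the same cells, and 1 cell gave 93.3% of the adult reads. The differences between these stages were not tested.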

How the results depend on the processing

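No paired analysis was possible because the cell numbers in the labels only count cells and no result came from a test. Nras kept its direction under every alternative, with a log2 ratio from 0.56 to 0.80 (pre-puberty/puberty), 2.66 to 3.34 (puberty/adult) and 3.44 to 3.90 (pre-puberty/adult). Nf1 ran from 1.23 to 1.55 (pre-puberty/puberty) and from -0.0071 to 1.29 (puberty/adult). For these genes the values that moved beyond their counting interval were, for pre-puberty/puberty, 0.63 for Nras with the stricter coverage filter, 0.69 with TMM scaling, 0.80 with DESeq2 size factors, 0.76 with every gene in the total, 0.56 in cells of 200000 to 600000 reads and 0.67 without pre-pubertal cells 1 to 37. In the order equal weight per cell, no top cell, TMM, DESeq2, every gene, that read window, without cells 1 to 37 and cells with Epcam, Krt8 or Krt14 reads, Nf1 gave 1.35, 1.33, 1.32, 1.43, 1.39, 1.55, 1.33 and 1.42. For puberty/adult, Nras gave 3.21 without the top cells, 2.66 with DESeq2 and 3.34 in the read window. There Nf1 gave 0.63 with the stricter filter, 0.83 with equal weight, 1.29 without the top cells, 0.53 with DESeq2 and -0.0071 in the read window.

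Leaving out the top cell of each gene and stage moved the median of all genes to 0.72 (puberty/adult) and 0.65 (pre-puberty/adult), so the larger ratios of 3.21 for Nras and 1.29 for Nf1 moved by no more than that shift. DESeq2 size factors moved the same median from -0.13 to 0.07 (pre-puberty/puberty) and from 0.10 to -0.12 (puberty/adult), every gene in the total moved it to 0.02 and 0.12, and the read window moved it to -0.14 and 0.30. The top-cell alternative also gave 4 members and 18 pathway genes at least 2-fold higher and 4 pathway genes lower for puberty/adult, and 0 members and 6 pathway genes lower for pre-puberty/adult. The read window gave 18 pathway genes higher for pre-puberty/puberty and 1 member (Hras) lower for puberty/adult. Among cells with epithelial reads 0 members were lower for pre-puberty/puberty and 0 for pre-puberty/adult.

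The direction was reversed for puberty/adult in Hras, with -0.34 at equal weight, -0.10 with DESeq2 and -1.81 in the read window, in Rasa1, with -0.0042 without the top cells and -0.18 with DESeq2, and in Braf, with -0.14 in the read window. For pre-puberty/adult it was reversed in Rasa1, with 0.051 in the read window, and in Sos1, with 0.080 at equal weight, 0.46 without the top cells, 0.014 with TMM, 0.12 with every gene and 0.38 in the read window. Values of the other members moved too, over -1.57 to -0.31 for Hras, -0.97 to -0.29 for Rasa1, -1.02 to -0.09 for Sos1, 0.21 to 0.87 for Braf and -0.94 to -0.46 for Map2k1 (pre-puberty/puberty), and over 0.02 to 1.398 for Sos1, -0.14 to 1.11 for Braf and 0.89 to 1.64 for Map2k1 (puberty/adult). For the named pathway genes, alternatives chosen after seeing the data reversed Rras (pre-puberty/puberty) to -0.84 without the top cells and -2.35 in cells with epithelial reads, and Rasa2 to 0.25 and 0.45. Without the top cells, puberty/adult was reversed to 0.39 for Dusp7, 0.17 for Rasa2 and 0.23 for Rasa3. Apart from the top-cell alternative, whose construction shifts all genes, the cause was not tested. The other counts stayed within 1.5 times, and 1 sample per stage sets the limit: differences between mice cannot be told apart from differences between stages.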
